A study of Mus musculus with 16 samples.

Results

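The Mediator complex was followed through its 33 genes, out of 11481 genes tested on the arrays. They were all the symbols of the form Med followed by a number (with an l for the paralogs Med12l and Med13l), with Cdk8, Cdk19 and Ccnc, in the table of probe genes. Each gene was represented by its brightest probe set among those with a signal of at least 200 on at least 2 of the 16 arrays. All 33 genes had such a probe set, and 15 of them had several. Med12l lay nearest to the limit, with a signal of 200 on 3 arrays and a mean of 139 over all 16.

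Mediator carries signals from transcription factors bound to DNA to RNA polymerase II at the promoter. Its head and middle modules contact the polymerase, its tail module contacts many transcription factors, and Med14 is the scaffold that runs through all of them. A separable kinase module, made of cyclin C, Cdk8 or Cdk19, Med12 or Med12l, and Med13 or Med13l, binds the core and blocks its contact with the polymerase.

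RNA came from primary mouse embryonic fibroblasts of 4 lines, each under 4 treatments with 1 array per line and treatment. In the triCH1 lines every allele of CBP and p300 that survived Cre lacked the CH1 domain, a docking site of these histone acetyltransferases for transcription factors. Line triCH1flox1 was CBP CH1/flox;p300 CH1/CH1 and line triCH1flox2 was CBP CH1/CH1;p300 CH1/flox. The control lines were flox1, heterozygous for a conditional allele of CBP, and flox2, heterozygous for a conditional allele of p300. All 4 lines, controls included, were made from e14.5 embryos, infected at passage 3 with Cre adenovirus, which deletes the conditional allele, and expanded at least 100 fold. The cells received trichostatin A (TSA, 100 ng/ml, a histone deacetylase inhibitor) followed after 30 min by dipyridyl (DP, 100 µM, an iron chelator that mimics hypoxia), TSA and vehicle, vehicle and DP, or ethanol vehicle at both times. Cells were lysed 3 h after the later addition. Each line had 1 culture per treatment, so the spread between cultures of a line could not be measured. For treatments, the p-values of the linear models set a mean change against how unevenly lines of the same class, triCH1 or control, responded. Steady differences in level between lines were removed. For the levels of the classes, the p-values set the difference against the spread of line means within a class. Both spreads were moderated by those of all genes.

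The deposited signals were scaled by the authors to 1 target on every array, and changes below are differences of log2(signal + 50), which understates the change of dim probe sets. The vehicle array of flox1 stood apart, with a 3' to 5' signal ratio for Gapdh of 2.59, against 0.907 to 1.26 on the other 15 arrays. The 3' probe set of 18S ribosomal RNA read 10718 there. The flox2 array with DP had 7428, and the remaining 14 arrays had 981 to 3147. On the vehicle arrays Crebbp, the gene of CBP, read 1437 and 1425 in triCH1flox1 and flox1, whose conditional allele was of CBP, against 2500 and 2022 in triCH1flox2 and flox2. Ep300, the gene of p300, read 941 and 645 in triCH1flox2 and flox2, against 1319 and 1054 in triCH1flox1 and flox1. Xist ran from 1751 to 5389 in the triCH1 lines and from 10.1 to 111 in the control lines. The Y-linked Eif2s3y ran from 8.9 to 82.9 in the triCH1 lines and from 974 to 1519 in the control lines, so sex and CH1 class cannot be told apart. Of 10 fibroblast markers 9 reached 200 on all arrays and Dcn did on 10 arrays. All 5 endothelial markers stayed under 200. Of 5 skeletal muscle markers Acta1 reached 200 on 16 arrays, Des on 8 and Ckm on 3, while Myod1 and Myog did on 0. Of 5 neural markers Map2 reached it on 16 arrays, Tubb3 on 10 and Sox10 on 3, while Gfap and Elavl4 did on 0. Of 6 epithelial markers Epcam reached it on 15 arrays, with signals from 199 to 1121, Krt18 on 11, Krt5 on 4 and Krt14 on 1, while Cdh1 and Krt8 did on 0. Of 6 macrophage and blood markers Csf1r reached it on 13 arrays, Adgre1 on 4, Cd14 on 3, and Ptprc, Cd68 and Lyz2 on 1 each. The part of other cell types in the results was not tested. In such bulk RNA, fewer cells of a type and less RNA per cell cannot be told apart.

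The Mediator genes did not move as 1 block, and the promoters of 4 genes that rose with TSA shared a short run of letters, so promoter windows are given for 3 of these and for Med11. RefSeq's table for GRCm38.p6 held a promoter window for 28 of the 33 genes. For Med7, Med10, Med15 and Med27 it held 2, of which only the one listed first was read. The windows read here are the 250 bases before the start site, 5′ to 3′ on the gene's strand. The first 3 below belong to genes that rose with TSA, and Med11 had the largest fall. Capitals mark matches on either strand to 6 promoter motifs: the core of the YY1 site, spelled AAGATGG, the GC box, spelled GGGCGG, the CCAAT box, the ETS core, spelled CCGGAAG, the TATA box, spelled TATAAA, and the cyclic AMP response element, spelled TGACGTCA. Med31 lies at chr11:72215593-72215842 on the minus strand, Med19 at chr2:84678152-84678401 on the plus strand, Med25 at chr7:44892425-44892674 on the minus strand and Med11 at chr11:70451668-70451917 on the plus strand.
Med31: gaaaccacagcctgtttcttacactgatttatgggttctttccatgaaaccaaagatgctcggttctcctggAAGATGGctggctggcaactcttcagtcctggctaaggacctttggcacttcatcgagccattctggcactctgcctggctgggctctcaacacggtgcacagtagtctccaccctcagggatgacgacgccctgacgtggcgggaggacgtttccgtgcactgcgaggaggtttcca
Med19: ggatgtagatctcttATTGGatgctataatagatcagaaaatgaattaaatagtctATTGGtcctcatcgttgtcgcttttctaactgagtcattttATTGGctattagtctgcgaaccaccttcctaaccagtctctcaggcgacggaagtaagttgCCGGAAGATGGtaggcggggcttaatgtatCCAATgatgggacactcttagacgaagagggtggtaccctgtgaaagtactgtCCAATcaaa
Med25: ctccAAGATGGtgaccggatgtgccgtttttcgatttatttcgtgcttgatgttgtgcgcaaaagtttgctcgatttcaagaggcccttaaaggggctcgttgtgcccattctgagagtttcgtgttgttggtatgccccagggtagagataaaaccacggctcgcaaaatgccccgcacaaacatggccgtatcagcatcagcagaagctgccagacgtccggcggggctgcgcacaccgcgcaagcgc
Med11: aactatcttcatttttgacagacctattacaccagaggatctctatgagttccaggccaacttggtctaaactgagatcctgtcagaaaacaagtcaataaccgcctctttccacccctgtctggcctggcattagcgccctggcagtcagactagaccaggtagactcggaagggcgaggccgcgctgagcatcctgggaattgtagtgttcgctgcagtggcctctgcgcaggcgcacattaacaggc
The letters AAGATGG end 171 bases before the start site in Med31, 81 bases before it in Med19, where they overlap the ETS core, and 239 bases before it in Med25. Med22, the fourth gene, has them on the opposite strand, ending 182 bases before its start, which is past the start of its head-to-head neighbour Rpl7a at 165 bases.

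Of the 8 windows of genes that rose with TSA, 4 (50%) held these letters, against 0 of 5 windows of genes that fell and 0 of 15 of genes that were not called. Among all tested genes with a window they stood in 4.45% of the 1461 that rose, 4.69% of the 1172 that fell and 3.97% of the 6680 not called. They stood in 4.53% of all 27025 promoters in the table. The 6 motifs were chosen with the TSA calls known, and the share is a description of 28 windows. The GC box stood in 3 of 8 windows of Mediator genes that rose, 2 of 5 that fell and 13 of 15 not called. Among all tested genes with a window it stood in 72.6% of those that rose, 61% of those that fell and 58.3% of those not called, and the difference was not tested. In the same order, the TATA box stood in 0 of 8, 2 of 5 and 1 of 15 Mediator windows. The ETS core stood in 2, 0 and 2, the CCAAT box in 3, 2 and 6, and the cyclic AMP response element in 0, 0 and 1. Among all tested genes with a window, the shares of these motifs were 6.51%, 13.9%, 36.5% and 2.71%. The 28 windows had a median of 18 CpG pairs, against 16 for all tested genes with a window, and the median was 12 in the 8 windows of Mediator genes that rose and 9 in the 5 that fell. Med10 and Med27, which rose, and Med7 and Med15, which fell, had a second window that was not read. The windows read for Med10 and Med15 had 4 CpG pairs each and none of the motifs, so these shares and medians depend on the window chosen.

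TSA changed Mediator genes in both directions. Of the 33 genes, 10 rose and 6 fell with TSA against vehicle (limma, adjusted p under 0.05 over all genes), and 17 were not called. That is 48.5% of the complex, against 28.2% of all genes tested, with 30.3% against 15.8% for rises and 18.2% against 12.5% for falls. The genes that rose were Med20 and Med22 of the head, Med4, Med10, Med19 and Med31 of the middle, Med23 and Med25 of the tail, Med27 and Cdk19. The genes that fell were Med8 and Med11 of the head, Med1 and Med7 of the middle, and Med15 and Med16 of the tail. The median change was 0.06 on the log2 scale over the 33 genes and 0.03 over all genes, and the median size of change without its sign was 0.38 and 0.28. The arrays with TSA lay wholly above those with vehicle for 7 of the 33 genes, against 13.1% of all genes, and wholly below for 5, against 10% of all genes. Changes were small, from a fall by 0.62 to a rise of 0.97. Fewer genes were called when arrays or lines were left out. Without the flox1 vehicle array 7 genes passed as higher and 1, Med8, as lower (log2 change -0.38, adjusted p = 0.0439 in limma), while the 6 genes that fell on the full set had log2 changes from -0.48 to -0.34. Without the flox2 DP array as well, 7 were called higher and 0 lower. The lower calls numbered 0 without line flox1, 3 without flox2, 1 without triCH1flox1 and 1 without triCH1flox2, and the higher calls numbered 7, 8, 8 and 5. On the full set of arrays, 10 of the 33 genes (30.3%) were lower in 4 of 4 lines, against 18.6% of all genes.

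**Figure D1:**
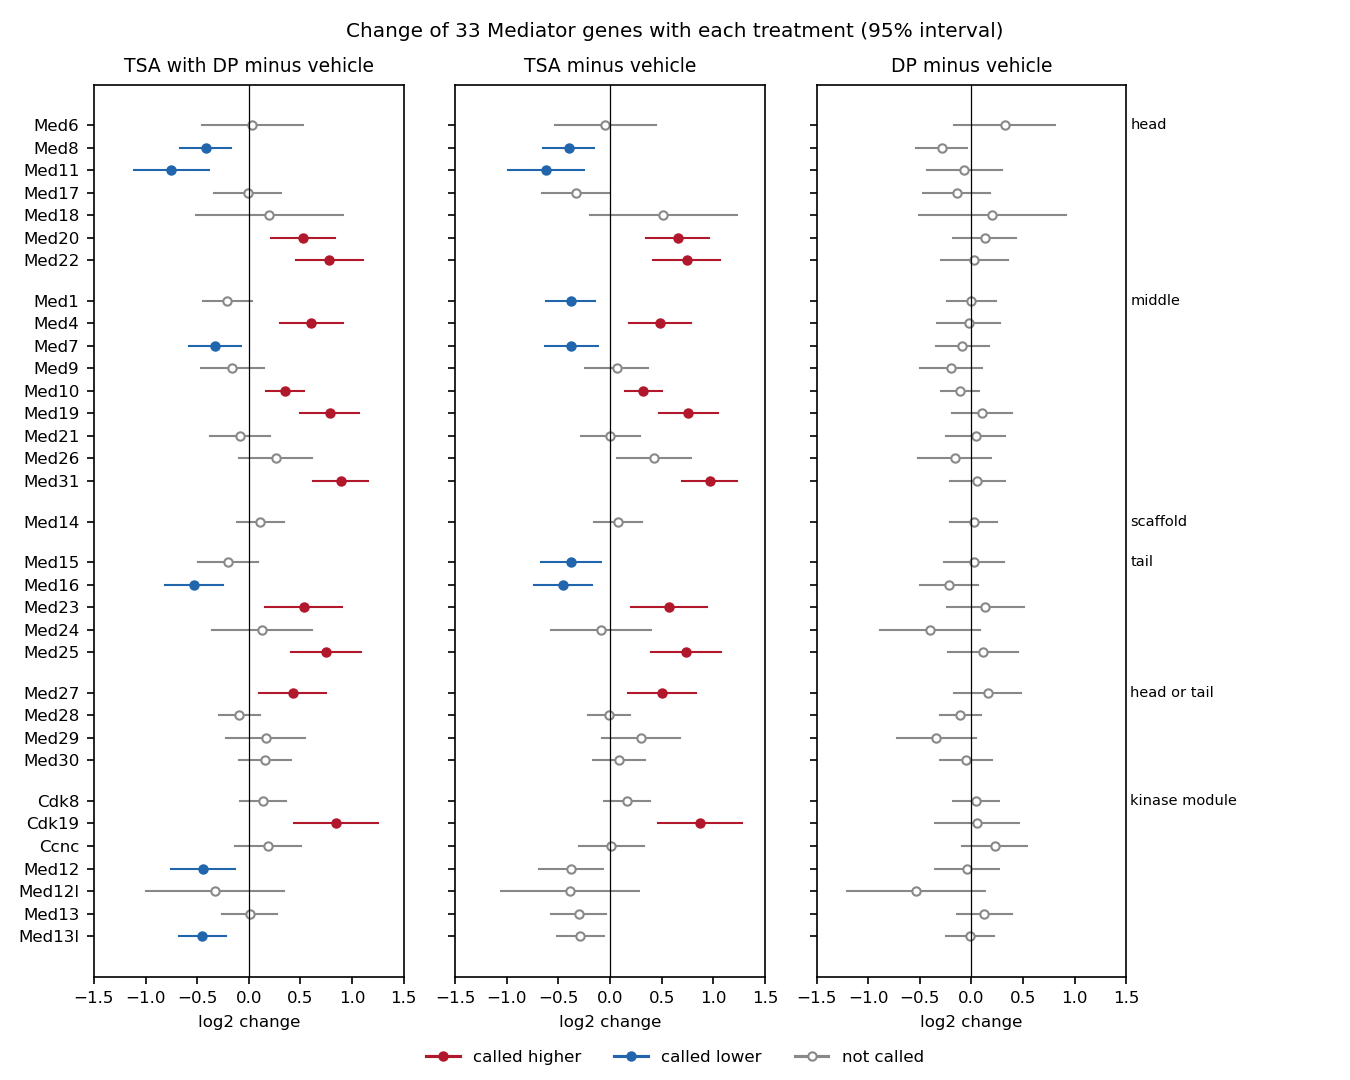
Log2 change of the 33 Mediator genes (rows, grouped by module) for TSA with DP minus vehicle, TSA minus vehicle and DP minus vehicle, with 95% intervals from limma over 4 lines. Filled red and blue points passed an adjusted p of 0.05; they number 10 and 6 in each of the panels with TSA and 0 in the panel with DP alone.

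In the middle module, the arm of the complex that reaches from the head to the tail, 4 of 9 genes rose and 2 fell. Med31, a small subunit that in yeast binds Med7, read 1743, 1069, 1369 and 1292 on the TSA arrays of triCH1flox1, triCH1flox2, flox1 and flox2, against 663, 550.4, 786 and 686 on their vehicle arrays. The TSA arrays all lay above the vehicle arrays. Med31 rose 1.95-fold (log2 change 0.97, SE 0.13, adjusted p = 2.88e-05 in limma), the largest rise among the 33. Its partner Med7 read 1129.6, 1043, 1103 and 1230.4 on the TSA arrays, against 1676, 1211, 1455 and 1594 on the vehicle arrays. Here the groups touched, with flox2 on TSA above triCH1flox2 on vehicle. Med7 fell by 0.38 on the log2 scale (SE 0.12, adjusted p = 0.0269), in 4 of 4 lines.

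Med19, which in yeast lies at the hook of the middle module, read 969, 1152, 854 and 1041 on the TSA arrays, against 682, 575, 479 and 559.6 on the vehicle arrays. All TSA arrays were higher. The rise was 1.69-fold (log2 change 0.76, SE 0.14, adjusted p = 0.000513). Med10, a conserved subunit of the same module, read 3736, 3208, 3574 and 3149.6 with TSA, against 2959, 2355, 3079.5 and 2531 with vehicle. The rise was small, at 1.25-fold, but alike in the lines, where the log2 changes ran from 0.21 to 0.44 (adjusted p = 0.0098). Med4 rose 1.40-fold (adjusted p = 0.0181), yet its lines ran from 0.01 in triCH1flox2 to 1.21 in flox1. The flox1 vehicle array, at 521, was the lowest of the 16 arrays for Med4, and without it the log2 change was 0.35 with an adjusted p of 0.104.

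Med1, the subunit that binds nuclear receptors, read 1215, 1023, 849.7 and 1197 on the TSA arrays, against 1533, 1423, 1266 and 1383 on the vehicle arrays. The groups did not overlap, and Med1 fell by 0.38 on the log2 scale (SE 0.11, adjusted p = 0.0168), and by 0.34 without the flox1 vehicle array (adjusted p = 0.0609). Med26, which links Mediator to elongation factors, read 529.8, 544, 725 and 470.3 with TSA and 374, 476, 453 and 332 with vehicle. It was higher in 4 of 4 lines but missed the threshold (log2 change 0.42, adjusted p = 0.0702). Med9 and Med21 had changes of 0.06 and 0.00.

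In the head module, which contacts the polymerase, 2 of 7 genes rose and 2 fell. Med22 read 901, 909.5, 683 and 1121 on the TSA arrays, against 742, 502, 410.0 and 449 on the vehicle arrays. It rose 1.67-fold (log2 change 0.74, SE 0.15, adjusted p = 0.00169), although the flox1 TSA array lay below the triCH1flox1 vehicle array. Med11, which pairs with Med22 in yeast, went the other way. It read 417, 458, 357 and 523 on the TSA arrays, against 693, 738, 775 and 593 on the vehicle arrays, with no overlap. Med11 fell by 0.62 on the log2 scale (SE 0.17, adjusted p = 0.0122), the largest fall among the 33, and by 0.48 without the flox1 vehicle array (adjusted p = 0.0759).

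Med20 sits with Med18 at the movable jaw of the yeast head. It read 1383, 1576, 1611 and 1486 on the TSA arrays, against 1144, 689.9, 1242 and 800.1 on the vehicle arrays. Every TSA array was higher, and the rise was 1.57-fold (log2 change 0.65, SE 0.15, adjusted p = 0.00286). Med18 itself was among the most uneven genes, at 529, 386, 329 and 823 with TSA and 344, 562, 172 and 326 with vehicle (log2 change 0.51, SE 0.34, adjusted p = 0.284). Med8 read 1925, 1690.1, 1717 and 1927 with TSA, against 2264, 2843, 2173 and 2413 with vehicle. The groups did not overlap, and Med8 fell by 0.40 (SE 0.12, adjusted p = 0.0151). Med17, a core subunit of the head, was lower in 4 of 4 lines without passing (log2 change -0.33, adjusted p = 0.118), and Med6 had a change of -0.05.

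**Figure D2:**
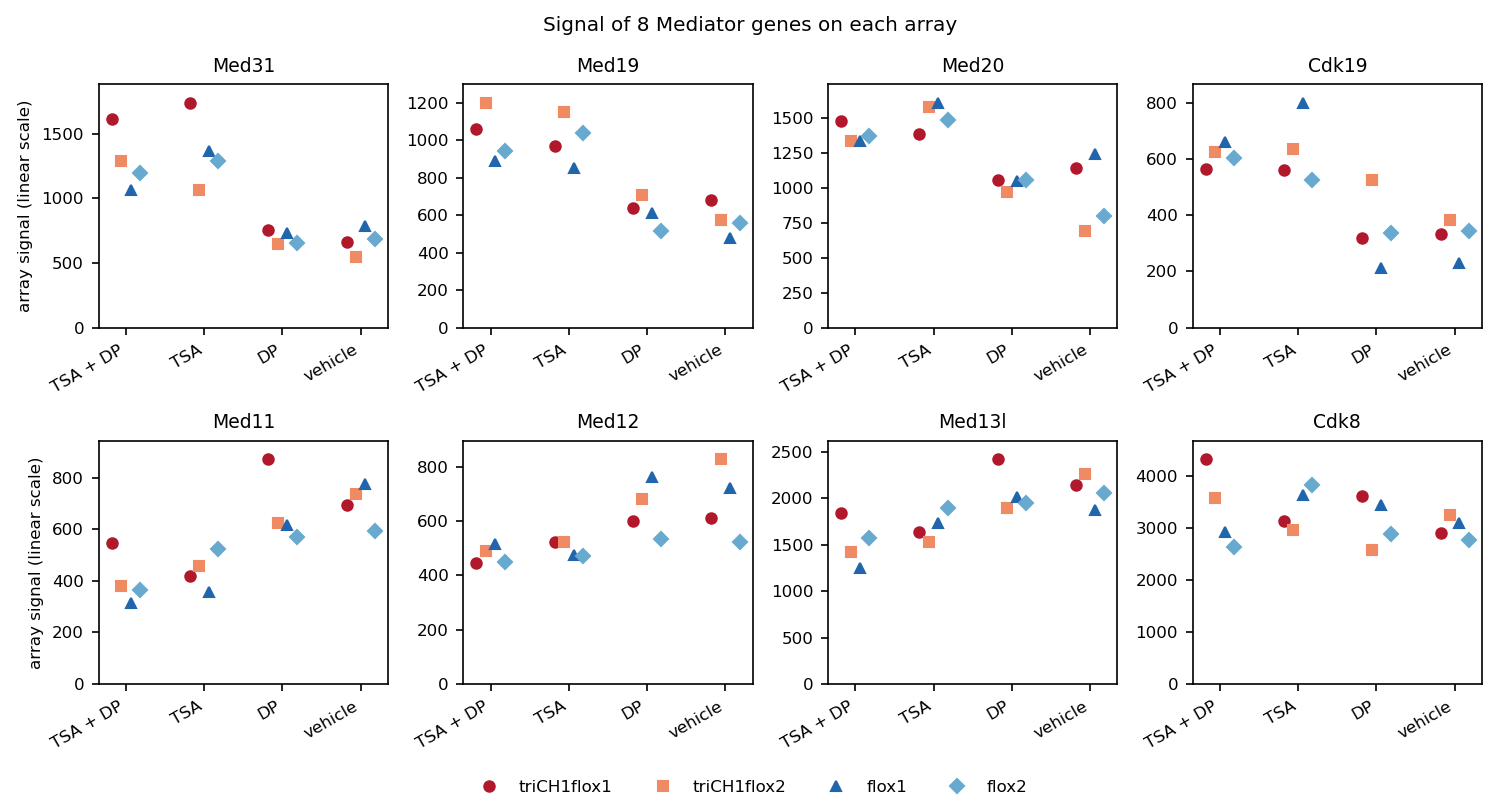
Array signal (linear scale, from 0) of 8 Mediator genes under TSA with DP, TSA, DP and vehicle, with 1 point per line. Med31, Med19, Med20 and Cdk19 lie higher on all 8 arrays with TSA than on all 8 without, Med11 lies lower on all 8, and Cdk8 overlaps.

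In the tail module, 2 of 5 genes rose and 2 fell. Med25, a target of viral and cellular activators, read 915, 1088, 885 and 917 on the TSA arrays, against 537, 529.8, 617 and 519 on the vehicle arrays. All TSA arrays were higher, and the rise was 1.67-fold (log2 change 0.74, SE 0.16, adjusted p = 0.00229). Med23, a subunit bound by the ETS factor Elk1, read 546, 817, 537 and 639 with TSA, against 575, 499, 209.9 and 433 with vehicle. It rose 1.48-fold (adjusted p = 0.0219) in 3 of 4 lines, and without the flox1 vehicle array, its lowest, the log2 change was 0.38 with an adjusted p of 0.137.

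Med16 read 791, 860.3, 711 and 814 on the TSA arrays, against 1103, 1074, 1269 and 1005 on the vehicle arrays, with no overlap. It fell by 0.46 (SE 0.13, adjusted p = 0.0153), and by 0.34 without the flox1 vehicle array (adjusted p = 0.0917). Med15, which binds SREBP factors of lipid synthesis, read 858, 745, 795 and 885 with TSA, against 1099.7, 1055, 973 and 1215 with vehicle. It fell by 0.38 (adjusted p = 0.0465), close to the threshold, and by 0.42 without that array (adjusted p = 0.0635). Med24 was at -0.09 and the scaffold Med14 at 0.08, and neither was called.

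Of the 4 subunits placed in the head or the tail, Med27 rose. It read 569.6, 627, 582 and 483 with TSA, against 417, 359, 382 and 374 with vehicle, with no overlap (1.42-fold, log2 change 0.50, adjusted p = 0.0217). Without the flox1 vehicle array the log2 change was 0.49 (adjusted p = 0.0561). Med28, Med29 and Med30 had log2 changes of -0.01, 0.30 and 0.09 and were not called. The mean signals of the 33 probe sets ran from 139 for Med12l to 3907 for Med28, but signals of different probe sets do not rank the genes by amount.

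In the kinase module 1 of 7 genes rose with TSA against vehicle and 0 fell. Cdk19 read 562, 637, 802 and 528 on the TSA arrays, against 335, 385, 229.9 and 346 on the vehicle arrays. All TSA arrays were higher, and Cdk19 rose 1.83-fold (log2 change 0.87, SE 0.19, adjusted p = 0.00267). Its paralog Cdk8 read 3142, 2962, 3649 and 3836 with TSA, against 2918, 3259, 3098 and 2769 with vehicle (log2 change 0.17, SE 0.10, 95% interval -0.06 to 0.39, adjusted p = 0.264). The change of Cdk19 exceeded that of Cdk8 in 4 of 4 lines, by a mean of 0.70 on the log2 scale (SD 0.54, n = 4). An exact two-sided sign-flip permutation test gave p = 0.125, the smallest that 4 lines allow. For TSA with DP minus DP, on separate arrays, Cdk19 exceeded Cdk8 in 3 of 4 lines, by a mean of 0.69 (SD 0.80, n = 4, exact p = 0.25). A second passing probe set of Cdk19, with a mean signal of 424, rose less with TSA against vehicle (log2 change 0.39, higher in 3 of 4 lines). It was not compared with Cdk8, so the size of the gap rests on the probe set used.

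Ccnc, the cyclin of both kinases, had a log2 change of 0.01 (95% interval -0.31 to 0.33). Med12, which switches the kinase on, and Med13 and Med13l, which tie the module to the core, had log2 changes of -0.38, -0.31 and -0.29. Each was lower in 4 of 4 lines, and each missed the threshold, with adjusted p of 0.0628, 0.0821 and 0.0598. Med12l, dim throughout, had a change of -0.39 with an SE of 0.32.

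**Figure D3:**
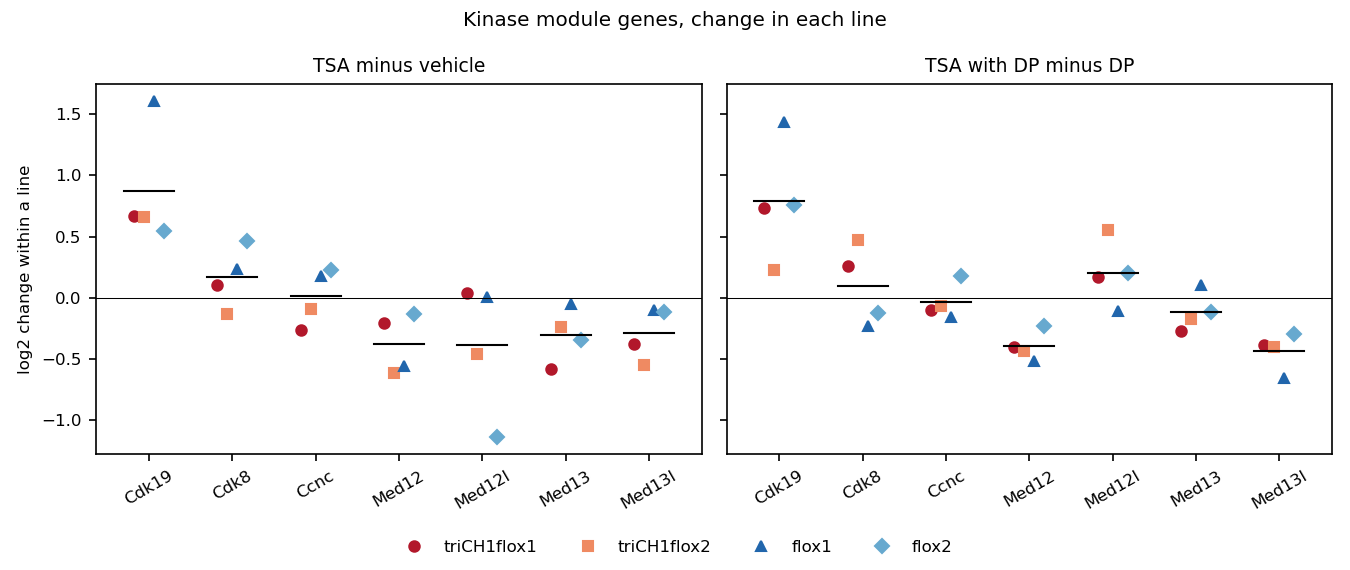
Log2 change of the 7 kinase module genes within each line (points) and the fitted mean (bars), for TSA minus vehicle and for TSA with DP minus DP. Cdk19 is above 0 in all 4 lines in both panels, and Med12 and Med13l are below 0 in all 4 lines in both.

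The arrays with DP gave TSA a separate set of arrays, since TSA with DP minus DP shares no array with TSA minus vehicle, though the cells were of the same 4 lines. Both comparisons came from the same model and share its estimate of spread for each gene. A gene called in both was thus not called by fully independent tests. Of the 33 genes 9 rose and 3 fell, 36.4% against 29.9% of all genes (27.3% against 17.7% for rises and 9.09% against 12.2% for falls). Of the 10 genes that had risen without DP, 10 had the same sign and 8 were called again. Among all 1809 genes that had risen, 1739 had the same sign and 76.3% were called again. Of the 10, Med23 and Med27 were not called again, with log2 changes of 0.40 and 0.27 and adjusted p of 0.101 and 0.216. Of the 6 genes that had fallen, 6 had the same sign and only Med11 was called again. Among all 1432 genes that had fallen, 1403 had the same sign and 67% were called again. Med8, Med1, Med7, Med15 and Med16 had log2 changes from -0.32 to -0.13 there.

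Med11 read 548, 379, 313 and 366 on the arrays with TSA and DP, against 873, 626, 616 and 568 on the DP arrays. It fell by 0.68 (SE 0.17, adjusted p = 0.0064), and over both settings its 8 arrays with TSA lay under its 8 arrays without. Med31 read 1617, 1292, 1067 and 1194 with TSA and DP, against 754, 648, 729 and 653 with DP (1.78-fold, adjusted p = 0.000103). In all, 5 genes (Med20, Med10, Med19, Med31 and Cdk19) lay higher on 8 of 8 arrays with TSA than on any of the 8 without, which held for 7.28% of all genes. Med11 alone lay lower in that way, as 4.56% of all genes did.

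Med13l and Med12 of the kinase module passed in this second comparison. Med13l read 1846, 1426, 1254 and 1578 with TSA and DP, against 2429, 1899, 2012 and 1953 with DP, with no overlap. It fell by 0.44 (SE 0.11, adjusted p = 0.00592). A second passing probe set of Med13l, with a mean signal of 572, had a log2 change of only -0.16 there. Med12 read 443, 489.5, 517 and 448, against 601, 682, 762 and 534, again with no overlap, and fell by 0.40 (SE 0.15, adjusted p = 0.0497). Both had the same sign on the arrays without DP. For Med29 the log2 change was 0.50 (adjusted p = 0.0454) on the DP arrays and 0.30 without DP. Whether TSA acted differently with DP was tested as the interaction of both agents, and 0 of 33 genes passed, against 0.392% of all genes. At an unadjusted p under 0.05 stood 1 of the 33, Med17, against 680 of all 11481 genes.

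**Figure D4:**
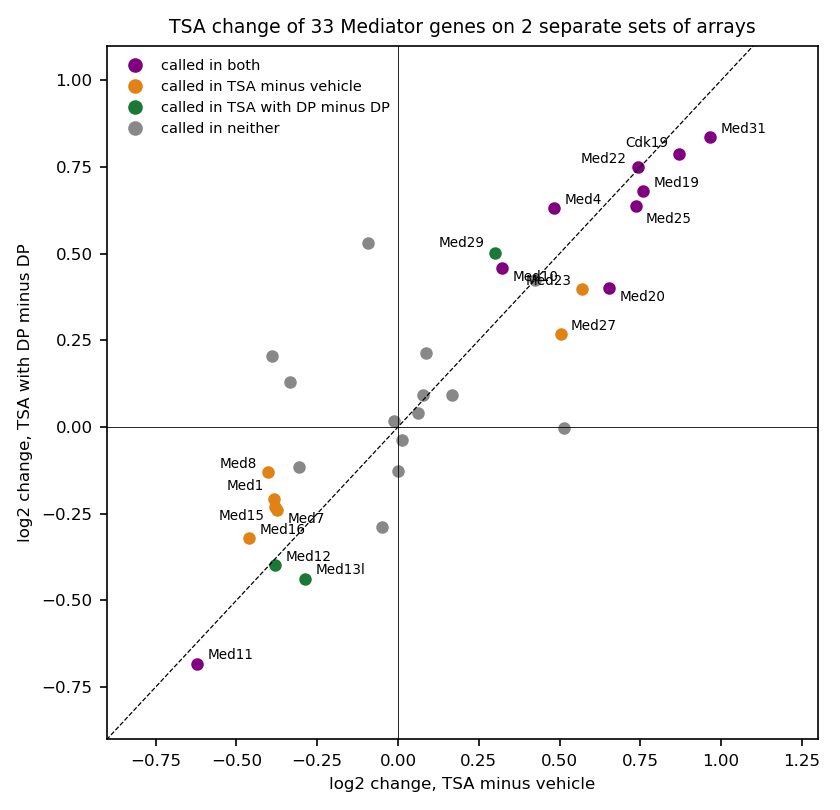
Log2 change of each Mediator gene in TSA minus vehicle (horizontal) and in TSA with DP minus DP (vertical), from separate arrays of the same 4 lines, with the line of equal change dashed. In purple, 9 genes passed in both; 7 passed in TSA minus vehicle only (orange) and 3 in TSA with DP minus DP only (green).

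Against vehicle, the combined treatment raised 10 genes and lowered 6 (48.5%, against 31.6% of all genes, of which 17.8% rose and 13.8% fell). The genes that rose were Med20, Med22, Med4, Med10, Med19, Med31, Med23, Med25, Med27 and Cdk19. The falls were of Med8, Med11, Med7, Med16, Med12 (log2 change -0.44, adjusted p = 0.029) and Med13l (log2 change -0.45, adjusted p = 0.00485). The second passing probe set of Med13l had a change of 0.01, so its fall rests on the probe set used. Without the flox1 vehicle array 12 genes were called, 8 higher and 4 lower. This comparison shares its vehicle arrays with TSA minus vehicle.

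DP changed no Mediator gene past the threshold. Against vehicle 0 of 33 genes were called (limma), against 1.71% of all genes, and 1 gene, Med8, had an unadjusted p under 0.05 (log2 change -0.29, adjusted p = 0.32). So did 1446 of all 11481 genes. The largest rise was 0.32 for Med6 and the largest fall was by 0.53 for Med12l. The second passing probe set had the opposite sign for both, at -0.19 for Med6 and 0.40 for Med12l. The 95% intervals lay within 1 log2 unit, a 2-fold change, on both sides of 0 for 32 of 33 genes, and within 0.5 for 23. Med16 was the only gene with 1 sign in all 4 lines (3.03%, against 17.1% of all genes). It read 1075, 994, 766 and 987 with DP, against 1103, 1074, 1269 and 1005 with vehicle, so that flox1 held most of the difference. On top of TSA, DP again changed 0 of 33 genes, against 0.148% called among all genes. At an unadjusted p under 0.05 stood 1 of the 33, against 614 of all 11481 genes. That 1 gene was Med13, higher in 4 of 4 lines by 0.31 (adjusted p = 0.854).

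The levels of the triCH1 and control lines, each averaged over the 4 treatments, differed past the threshold for 0 of 33 genes (limma on 2 lines against 2; 0.157% of all genes). At an unadjusted p under 0.05 stood 3 of the 33 genes, all higher in the triCH1 lines: Med14, Med4 and Med30. Among all 11481 genes 1221 stood there. Med14, an X-linked gene, ran from 1469 to 2018 over the 8 arrays of the triCH1 lines, and from 1140 to 1437 over the 8 of the control lines (log2 difference 0.41, SE 0.12, adjusted p = 0.329). The 8 arrays of a class are of 2 lines only, and how many of all genes separate in this way was not counted. The X-linked Med12 differed by 0.07. The largest difference was 0.48 for Med6 (adjusted p = 0.473). The 95% intervals stayed within 1 log2 unit for all 33 genes.

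The change with TSA did not differ between the classes past the threshold for any of the 33 genes (1 at an unadjusted p under 0.05, Med4; 0% of all genes called). These intervals were wide, with 23 of 33 inside 1 log2 unit. Within the triCH1 lines 5 genes rose (Med20, Med10, Med19, Med31 and Med25; 15.2%, against 8.57% of all genes) and 0 fell, against 7.12% of all genes. Within the control lines 6 rose (Med22, Med4, Med19, Med31, Med23 and Cdk19; 18.2%, against 8.79%) and 0 fell, against 6.79%. Med31 rose 2.17-fold in the triCH1 lines and 1.76-fold in the control lines. The changes of Med9, Med24 and Ccnc had 1 sign in both triCH1 lines and the other sign in both control lines, and the tested difference had adjusted p from 0.819 to 0.888. Some of these changes were near 0, such as 0.004 for Med24 in triCH1flox1 and 0.02 for Med9 in flox2. How many of all genes had such signs was not counted. For the change with DP 0 of 33 passed, against 0.0261% of all genes. Med18 and Med23, 2 of the 33, had an unadjusted p under 0.05, as did 559 of all 11481 genes. Med18, with a difference of -1.52, read 108 and 655 with DP in triCH1flox1 and triCH1flox2, so that the class mean stood between lines that moved apart.

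Other parts of the transcription machinery were set beside Mediator. Among all genes 15.8% rose and 12.5% fell with TSA. Of 10 subunits of RNA polymerase II, 5 rose with TSA and 0 fell, with a median log2 change of 0.30. That count was 3 with no replicate block, with no variance trend, and without line flox1, flox2 or triCH1flox1. Of 17 genes of the general factors 4 rose and 2 fell, and of 13 TFIID genes 4 rose and 0 fell. Elongation factors had 2 rises and 4 falls among 16, with a median of -0.24, and cohesin with its loaders and partners had 1 rise and 4 falls among 10, with a median of -0.26. Over these 66 genes 16 rose and 10 fell, against 10 and 6 of the 33 Mediator genes. With DP 2 of the 66 rose and 0 fell, against 1.71% of all genes called in either direction.

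Other probe sets of the called genes gave a partial check. Of the 16 genes called with TSA against vehicle, 6 had further passing probe sets, 8 in all. Of these 7 had the same sign, and 1, the second probe set of Med25, was called as well (log2 change 0.56, adjusted p = 0.0292 over probe sets). The second probe set of Cdk19 had 0.39 (adjusted p = 0.146). A dim probe set of Med1 had the opposite sign (0.25). The second probe set of Med13 fell by 0.66 (adjusted p = 0.0135), in 4 of 4 lines, where the one used had -0.31.

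Start sites of other genes lay within 1000 bases upstream, on the opposite strand, of 6 of the 28 genes with a window (21.4%, against 18.5% of all tested genes with a window). The neighbours of 3 genes that rose with TSA did not pass themselves. Bysl, 93 bases from Med20, had a log2 change of -0.21 (adjusted p = 0.188). Rpl7a, beside Med22, had -0.01, and Tmx2, 228 bases from Med19, had 0.10. At the head-to-head pair of Med29 and Paf1, a subunit of an elongation complex, the starts were 306 bases apart, and Paf1 rose with TSA (log2 change 1.33, adjusted p = 1.58e-05) while Med29 was not called.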

How the data were processed

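Biotin-labelled target from total RNA of 16 cultures was hybridised to mouse genome arrays, and the deposited intensities are, per the labels, signals from Affymetrix's statistical algorithm that the authors scaled to a 2% trimmed mean of 500. The values met this target when checked. The sources used here give no version of that software. The arrays held 45101 probe sets, of which 34945 had a single gene symbol, 932 several and 9160 none, and the last 2 kinds were left out with 64 control probe sets. A further probe set that carries Med20 together with another gene was thus not used. Of the 72 probe sets of Mediator genes 50 passed the filter.

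Values were analysed as log2(signal + 50). Linear models over 11481 genes used limma 3.58.1 (R 4.3.3), with 8 means of class and treatment, a term for the line within its class and empirical Bayes variances with a trend (6 residual and 10.4 prior degrees of freedom). The classes were compared on line means (2 residual and 6.19 prior degrees of freedom). P-values were adjusted by Benjamini and Hochberg within each comparison. Contrasts sharing control arrays are not compared with each other. The line term rests on the 4 treatments of a line being of the same cells. After removal of group means, the 12 pairs of arrays sharing a triCH1 line correlated at 0.0770 to 0.320, and the 12 pairs sharing a control line at 0.160 to 0.328. Lines that share only a number across classes correlated at 0.00969 to 0.170 over 32 pairs. With 2 lines in a class, their deviations from a group mean mirror each other. Each correlation is thus repeated among the pairs, and the numbers of pairs do not count independent values.

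The genes, the module assignment and the lists of transcription machinery were chosen with earlier results of these data known. Named were all genes past the threshold in a comparison, the kinase module, the brightest and dimmest member of a module and the largest changes. Alternatives were other pseudocounts and filters, quantile normalization, no line term, no variance trend, the mean of probe sets, an array-series term, and leaving out arrays or lines. The array series was a digit of the array barcode in the labels. All vehicle arrays had a 1. The triCH1flox1 arrays with TSA, DP or both and the flox2 array with both had a 0. The term thus overlaps in part with treatment and line. Array precision is limited by the number of lines. Plots used matplotlib 3.10.9 under Python 3.11.15.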

Additional observations from a re-analysis of the deposited data

How the results depend on the processing

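The number of Mediator genes called with TSA against vehicle, 16 in the main analysis, was 13 to 18 under 2 other pseudocounts, 2 other filters, quantile normalization, no replicate block, no variance trend, the mean of probe sets, an array-series term and without the flox2 DP array. It was 8 without the flox1 vehicle array and 7 without that array and the flox2 DP array, an alternative chosen after seeing the data; the cause was not tested. Leaving out each line in turn gave 6 to 11 genes for TSA against vehicle (6 without triCH1flox2, 7 without flox1, 9 without triCH1flox1), 8 to 10 for TSA with DP against vehicle (16 in the main analysis) and 8 to 9 for TSA with DP against DP (12 in the main analysis), with fewer arrays in each fit. With the array-series term the counts were 12 for TSA with DP against vehicle and 11 for TSA with DP against DP. Med22, Med19, Med31, Med25 and Cdk19 stayed past the threshold for TSA against vehicle under all 16 alternatives. Med20 missed it once, with adjusted p up to 0.088, Med10 3 times, Med8 and Med23 4 times, Med11, Med16 and Med4 5 times, Med1 6 times, Med7 and Med27 7 times and Med15 11 times. Med12 passed under 4 alternatives (adjusted p from 0.0416), and Med13 and Med13l under 1 each. No named gene changed direction while called. The line was a replicate block in the main analysis; with no replicate block the counts were 13 for TSA against vehicle, 12 for TSA with DP against vehicle, 9 for TSA with DP against DP and 0 for the 5 other comparisons it allows. The counts for DP, DP on top of TSA, the interaction and the 3 class comparisons were 0 under every alternative run. The median difference between the classes in DP change was -0.01 in the main analysis, 0.02 with a pseudocount of 200 and -0.02 with quantile normalization. Under a filter of 200 on 8 arrays Med12l could not be tested.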
